A study of Mus musculus with 6 samples.

Results

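The PI3K-AKT pathway was followed through 9 genes in converted double-negative T cells (cDNT) kept with or without IL-10. They comprised the genes of the PI3K catalytic subunits, Pik3cb and Pik3cd, and of a regulatory subunit, Pik3r1, the adaptor gene Pik3ap1, the inhibitor gene Pik3ip1, the kinase genes Akt1, Akt2 and Sgk1, and the phosphatase gene Inpp5d. They were picked by name from the 29393 genes of the count table, and all 9 passed the filter on low counts together with 14916 genes in all. cDNT are mouse T cells that lack CD4 and CD8, obtained in culture by converting C57BL/6 CD4+CD25- spleen and lymph node T cells with mature DCs (dendritic cells) plus IL-2, followed by a sort. The W/ IL-10 cells received IL-10 at 50 ng/ml for 24 h, and the W/O IL-10 cells did not. According to the methods the stimulation also included anti-CD3/CD28 antibodies, which the sample labels do not mention, and neither source says whether the W/O IL-10 cells received them. The labels give adult C57BL/6 mice and spleen as the tissue for both groups. Each group had 3 libraries, and nothing states that they came from separate cultures or animals, so the p-values measure the spread between these libraries, which may be technical.

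Class I PI3K turns a membrane lipid into PIP3, which recruits AKT to the membrane, where PDK1 and mTORC2 activate it. In T cells the pathway runs below the T cell receptor, CD28 and the IL-2 receptor, and AKT then keeps FOXO factors out of the nucleus and feeds mTORC1. Phosphatases such as SHIP1 remove phosphates from PIP3 and act as brakes. The study names PI3K and MAPK signaling as candidate routes to NKG2A, an inhibitory receptor, in these cells.

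Total counts lay between 21619420 and 23967088 per library, and the floor of 3 counts was 0.123 to 0.146 CPM (counts scaled to a common library size of 1000000). The T cell markers summed to 1210 to 1549 CPM W/O IL-10 and 1611 to 1725 CPM W/ IL-10, and of the 6, 1 passed, Cd5, which fell from 62.4 to 44.9 CPM (edgeR, adjusted p = 0.0467). The other 5 were higher W/ IL-10 but did not pass, and the median log2 fold change of the 6 was 0.25. Cd4 was near 0, with 1.39 CPM W/O IL-10 and 0.889 CPM W/ IL-10, whereas Cd8a (107 and 158 CPM) and Cd8b1 (38.1 and 60.8 CPM) were not absent and rose W/ IL-10 (edgeR, adjusted p = 0.0369 and 0.0306). Across all tested genes the median log2 fold change moved with GC content, from 0.24 in the 1014 genes of at most 40% GC to -0.13 in the 543 genes above 60% GC. The part of this trend in any single gene was not tested. For the members and the passing pathway genes, values after a GC content and length correction are given below where it changed a call or direction. For the other pathway genes only a change of call is stated.

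Of the 9 genes, 3 rose W/ IL-10, namely Pik3cb, Pik3ap1 and Sgk1, by 1.36-fold, 1.38-fold and 1.43-fold. No member fell in the edgeR test, 0 members were lower at an unadjusted p under 0.05 (1069 of all tested genes), and 0 fell by DESeq2 (311 of all) or by limma-voom (127 of all). Of all tested genes, 1.21% rose and 0.979% fell, 2.19% in either direction. None of the 3 increases reached 1.5-fold, the size the study required, against 0.778% of all genes that rose and 0.677% that fell by that much in the edgeR test. The count of members of that size was also 0 at an unadjusted p under 0.05 (779 of all genes), by DESeq2 (359 of all) and by limma-voom (205 of all). The groups did not overlap in 5 members, all higher W/ IL-10, against 11.3% of all genes higher and 11.2% lower without overlap. The median log2 fold change was 0.13 over the 9 members and 0.01 over all tested genes. The members were picked with earlier results in view. The study lists 3 of them, the same Pik3cb, Pik3ap1 and Sgk1, as highly expressed with IL-10 in these same libraries. The count is therefore no independent evidence of a direction. In bulk RNA, fewer cells of a type and less RNA per cell cannot be told apart.

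**Figure D1:**
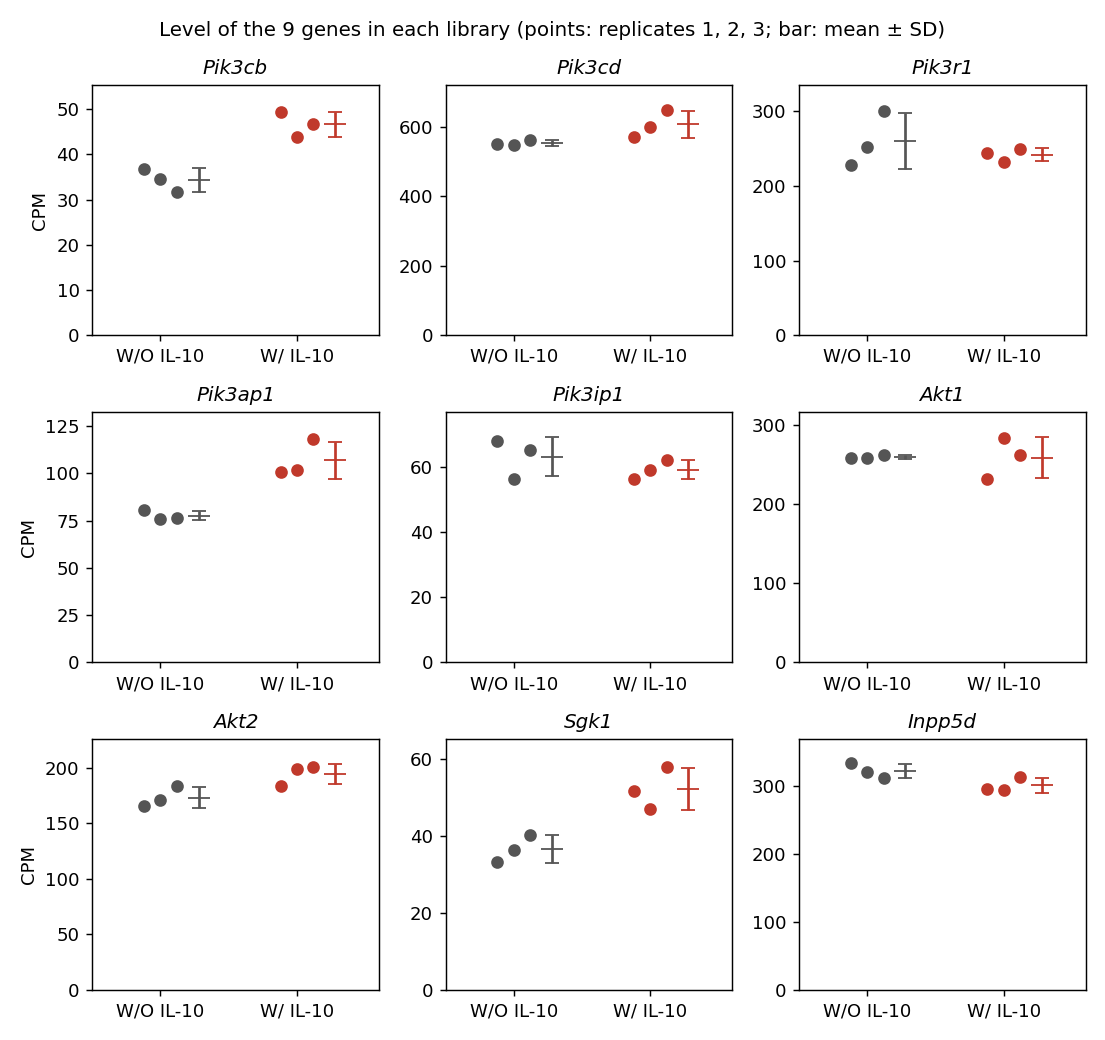
CPM of each of the 9 members in each library (points; bar, mean ± SD, 3 libraries per group), with a separate vertical axis for each gene. The W/ IL-10 points of Pik3cb, Pik3cd, Pik3ap1, Akt2 and Sgk1 lie above all W/O IL-10 points, whereas those of Pik3r1, Pik3ip1, Akt1 and Inpp5d overlap.

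Among the catalytic subunits, Pik3cb (ENSMUSG00000032462, chr9:99036654-99140621 in GRCm38, minus strand) encodes p110β, the subunit that also answers G-protein-coupled receptors. Its level was 36.8, 34.6 and 31.7 CPM W/O IL-10 (replicates 1, 2 and 3, in this order throughout) and 49.4, 43.8 and 46.8 CPM W/ IL-10. All W/ IL-10 libraries were above all W/O IL-10 libraries, and the mean went from 34.4 ± 2.57 to 46.6 ± 2.79 CPM (SD, n = 3 each). The log2 fold change was 0.44 (SE 0.09, 95% interval 0.24 to 0.65, adjusted p = 0.0465). Of the 50-base stretches of its transcripts, 5.19% also occur in transcripts of Gm12992 or Gm12978, so a small share of its reads may be uncertain.

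Pik3cd (ENSMUSG00000039936, chr4:149649168-149702571, minus strand) encodes p110δ, the catalytic subunit typical of leukocytes. Its level was 550.1, 546.9 and 562.2 CPM W/O IL-10 and 571.9, 598.3 and 649.7 CPM W/ IL-10. The lowest W/ IL-10 library was above the highest W/O IL-10 library, but the test was not passed (log2 fold change 0.13, SE 0.08, 95% interval -0.05 to 0.32, adjusted p = 0.5001). The 95% interval of the Pik3cd fold change ran from 0.966 to 1.25.

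Pik3r1 (ENSMUSG00000041417, chr13:101680563-101768217, minus strand) encodes p85α, the regulatory subunit that stabilizes the catalytic subunits and brings them to phosphotyrosine. Its level was 227.6, 252.2 and 300.6 CPM W/O IL-10 and 244.1, 232.3 and 248.8 CPM W/ IL-10. The W/O IL-10 libraries alone spanned the whole W/ IL-10 range, and the log2 fold change was -0.11 (SE 0.10, 95% interval -0.34 to 0.13, adjusted p = 0.687).

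The adaptor Pik3ap1 (ENSMUSG00000025017, chr19:41272377-41385102, minus strand) encodes BCAP, which docks PI3K at signaling receptors and was first known from B cells. Its level was 80.5, 76.0 and 76.5 CPM W/O IL-10 and 100.6, 101.8 and 118.2 CPM W/ IL-10. The lowest W/ IL-10 library was well above the highest W/O IL-10 library, and the mean went from 77.6 ± 2.48 to 106.9 ± 9.82 CPM (SD, n = 3 each). The log2 fold change was 0.46 (SE 0.08, 95% interval 0.28 to 0.65), and its adjusted p of 0.0291 was the smallest of the 9 members. B cell markers summed to 64.8, 160.6 and 108.4 CPM W/O IL-10 and to 64.4, 111.6 and 63.1 CPM W/ IL-10, and 0 of 6 rose or fell. The dendritic cell markers summed to 29.4 to 33.0 CPM W/O IL-10 and 50.1 to 61.0 CPM W/ IL-10, without overlap. Of the 3 tested, Itgax, which activated T cells also express, rose from 20.4 ± 2.06 to 43.2 ± 5.36 CPM (adjusted p = 0.00383). Xcr1 had 3.89 and 5.89 CPM (adjusted p = 0.184) and Zbtb46 had 6.70 and 4.94 CPM (adjusted p = 0.212), neither with overlap, while Clec9a and Siglech had at most 3 counts in any library. The macrophage markers summed to 26.9 to 34.6 CPM W/O IL-10 and 31.1 to 34.4 CPM W/ IL-10, and 0 of 4 tested rose or fell. The summed NK cell markers were lower W/ IL-10, at 580.6 to 603.1 against 702.3 to 725.9 CPM, and 2 of 5 fell, Eomes from 517.5 to 364.4 CPM and Ncr1 from 6.53 to 2.95 CPM. Eomes, which T cells also express, made up most of that sum, while Cd244a (147.7 and 187.2 CPM, adjusted p = 0.0898) and Itga2 (7.24 and 10.4 CPM, adjusted p = 0.232) were higher W/ IL-10 without overlap. The part of these cell types in the Pik3ap1 values was not tested beyond these levels.

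Pik3ip1 (ENSMUSG00000034614, chr11:3330401-3342971, plus strand) encodes a transmembrane protein that binds p110 and inhibits it. Its level was 67.7, 56.3 and 65.2 CPM W/O IL-10 and 56.2, 58.9 and 62.1 CPM W/ IL-10. The groups overlapped (log2 fold change -0.10, SE 0.09, 95% interval -0.30 to 0.11, adjusted p = 0.669). Of its exon bases, 2.13% overlap a gene on the opposite strand, Gm12592, and the strand setting of the counting is not given in the sources used here. Per kb of merged exon, the ratio of Pik3ap1 to Pik3ip1 was 0.911, 1.034 and 0.899 W/O IL-10 and 1.373, 1.326 and 1.458 W/ IL-10. The ratio was thus higher in all W/ IL-10 libraries, whatever length is used. Which gene of the pair is the higher does depend on the length. Merged exons span 5572 bases for Pik3ap1 and 4272 for Pik3ip1, and the longest transcripts 4482 and 2573. The ratio was not recomputed with the longest transcripts.

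Sgk1 (ENSMUSG00000019970, chr10:21882184-21999903, plus strand) encodes an AKT-related kinase that, like AKT, is activated through PDK1 and mTORC2 and phosphorylates FOXO factors. Its level was 33.2, 36.2 and 40.3 CPM W/O IL-10 and 51.7, 46.9 and 58.0 CPM W/ IL-10. All W/ IL-10 libraries were above all W/O IL-10 libraries, and the mean went from 36.6 ± 3.58 to 52.2 ± 5.56 CPM (SD, n = 3 each). Sgk1 had the largest log2 fold change of the 9 members, 0.51 (SE 0.11, 95% interval 0.27 to 0.76), but its spread was also wider and its adjusted p of 0.0497 was just under the threshold.

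Akt1 and Akt2 encode the main AKT kinases of T cells. Akt1 (ENSMUSG00000001729, chr12:112653821-112674884, minus strand) had 257.5, 258.0 and 261.8 CPM W/O IL-10 and 231.0, 282.8 and 261.3 CPM W/ IL-10. The W/O IL-10 libraries lay within the W/ IL-10 range and the means were nearly equal (log2 fold change -0.00, 95% interval -0.20 to 0.19, adjusted p = 0.988), with a log2 fold change of 0.12 after the GC and length correction. Akt2 (ENSMUSG00000004056, chr7:27591552-27640826, plus strand) had 165.6, 171.1 and 183.5 CPM W/O IL-10 and 184.0, 198.7 and 200.5 CPM W/ IL-10. The groups of Akt2 touched without overlapping, and the test was not passed (log2 fold change 0.17, SE 0.08, 95% interval -0.01 to 0.34, adjusted p = 0.358). With the GC and length correction the Akt2 value was 0.27 (adjusted p = 0.075, and 0.0463 with the replicate block as well). For Akt2, 9.76% of 50-base stretches also occur in the pseudogene Akt2-ps.

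The brake Inpp5d (ENSMUSG00000026288, chr1:87620312-87720507, plus strand) encodes SHIP1, the PIP3 5-phosphatase of blood cells. Its level was 333.7, 321.4 and 312.4 CPM W/O IL-10 and 296.5, 293.9 and 314.4 CPM W/ IL-10. The highest W/ IL-10 library exceeded the lowest W/O IL-10 library, and the log2 fold change was -0.10 (SE 0.07, 95% interval -0.26 to 0.07, adjusted p = 0.588).

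The 3 calls changed with the libraries used. Without W/O IL-10 replicate 1, all 3 still passed (adjusted p = 0.0129 for Pik3cb, 0.0113 for Pik3ap1 and 0.0400 for Sgk1). Without any of the other 5 libraries, 0 members passed, with adjusted p of 0.0927 to 0.2054 for Pik3cb, 0.0741 to 0.1396 for Pik3ap1 and 0.0672 to 0.2249 for Sgk1. The size of the differences moved less, with log2 fold changes of 0.37 to 0.48 for Pik3cb, 0.38 to 0.50 for Pik3ap1 and 0.43 to 0.58 for Sgk1 when each library was left out. Among the 327 genes that passed, ranked by p, Pik3ap1 was 179th, whereas Pik3cb (296th) and Sgk1 (320th) lay near the threshold.

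**Figure D2:**
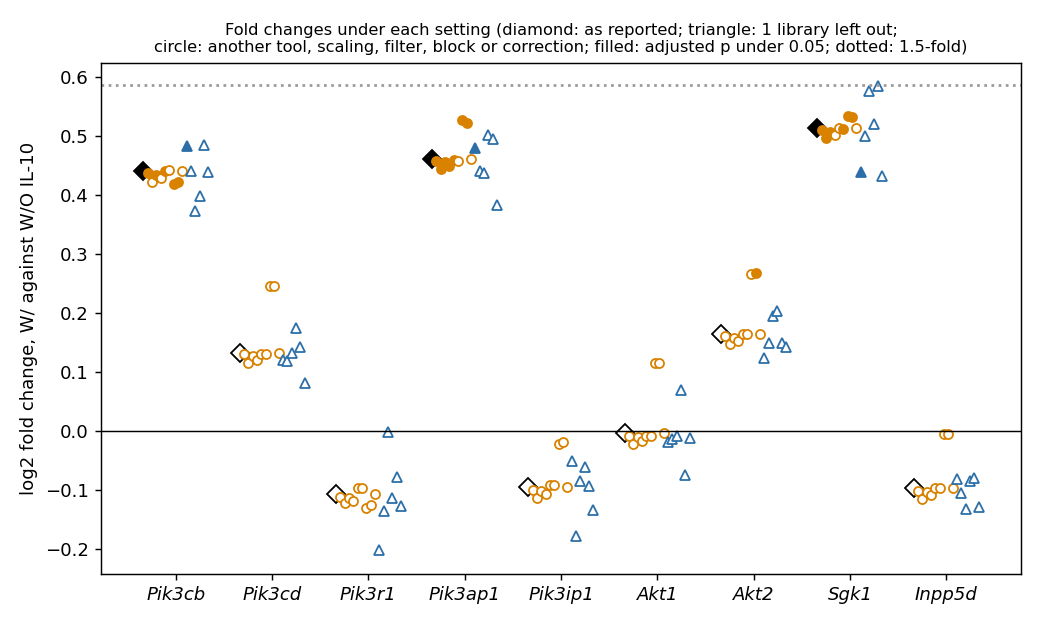
Log2 fold change of W/ IL-10 against W/O IL-10 (vertical axis) of each of the 9 members (horizontal axis), as reported (diamond), with 1 library left out (triangles) and under the other tools, scalings, filters, blocks and corrections (circles), filled where the adjusted p was under 0.05, with a dotted line at 1.5-fold. Points of Pik3cb, Pik3ap1 and Sgk1 stay between 0.37 and 0.58, and those of Akt1 fall on both sides of 0.

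To show the sequence in front of the genes that rose, the 250 bases before RefSeq starts of Pik3cb, Pik3ap1 and Sgk1 are printed 5′ to 3′ on the gene's strand (GRCm38.p6). Sgk1 has 6 such starts, and the farthest upstream and the farthest downstream are shown. Capitals mark the STAT palindrome TTCNNNGAA, since the IL-10 receptor signals through STAT3.
Pik3cb (chr9:99140212-99140461, minus strand): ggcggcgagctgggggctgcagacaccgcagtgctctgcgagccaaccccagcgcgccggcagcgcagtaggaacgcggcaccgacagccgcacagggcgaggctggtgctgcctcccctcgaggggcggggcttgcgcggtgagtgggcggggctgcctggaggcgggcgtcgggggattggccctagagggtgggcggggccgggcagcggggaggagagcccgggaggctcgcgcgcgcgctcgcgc
Pik3ap1 (chr19:41385103-41385352, minus strand): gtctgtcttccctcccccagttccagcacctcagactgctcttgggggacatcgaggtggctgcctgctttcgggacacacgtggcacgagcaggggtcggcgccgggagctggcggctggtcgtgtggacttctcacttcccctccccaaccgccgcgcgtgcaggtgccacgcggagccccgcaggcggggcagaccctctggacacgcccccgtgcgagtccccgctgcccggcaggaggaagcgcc
Sgk1, farthest upstream start (chr10:21881934-21882183, plus strand): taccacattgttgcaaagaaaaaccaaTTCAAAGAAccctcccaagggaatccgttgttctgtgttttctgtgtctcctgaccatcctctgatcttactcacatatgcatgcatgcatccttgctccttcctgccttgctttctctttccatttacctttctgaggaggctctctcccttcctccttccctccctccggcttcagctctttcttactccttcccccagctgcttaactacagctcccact
Sgk1, farthest downstream start (chr10:21994416-21994665, plus strand): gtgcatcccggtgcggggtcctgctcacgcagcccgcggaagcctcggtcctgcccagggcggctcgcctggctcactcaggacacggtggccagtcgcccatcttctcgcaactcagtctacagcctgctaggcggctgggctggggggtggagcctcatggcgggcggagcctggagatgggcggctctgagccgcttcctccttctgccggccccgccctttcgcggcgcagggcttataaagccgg
The windows of Pik3cb, Pik3ap1 and the downstream Sgk1 start hold 78.0%, 71.2% and 70.4% G and C, against a median of 52.4% over all 32851 windows of the table, whereas the upstream Sgk1 window holds 48.4%. The palindrome, the same on both strands, lies 223 bases before the upstream Sgk1 start. Over the 21 windows found for the 9 members it occurred in 2, the other being an Akt2 window (160 bases before the start), compared with 7.02% of all windows. The FOXO core GTAAACA, searched on both strands, occurred in 1 of the 21, an Akt1 window, compared with 3.17% of all windows. Counts per gene do not tell which start was used, and a match of letters is no measure of binding.

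Compared per length, the catalytic subunits were far apart in level. Pik3cd was the highest member in both groups, at 88.4 ± 1.29 CPM per kb of exon W/O IL-10 against 96.9 ± 6.32 W/ IL-10, whereas Pik3cb was the lowest, at 4.78 ± 0.357 and 6.48 ± 0.388 (SD, n = 3). Between them W/O IL-10 stood Akt1 (63.2 ± 0.563 CPM per kb), Inpp5d (42.4 ± 1.41), Pik3r1 (25.8 ± 3.68), Akt2 (24.3 ± 1.29), Pik3ip1 (14.8 ± 1.40), Pik3ap1 (13.9 ± 0.444) and Sgk1 (7.46 ± 0.731). The libraries of Pik3r1 and Akt2 overlapped in that order, as did those of Pik3ip1 and Pik3ap1. W/ IL-10 no neighbours overlapped by this length, and both of these pairs stood in the other order. Akt2 (27.3 ± 1.27 CPM per kb) was above Pik3r1 (24.0 ± 0.840), and Pik3ap1 (19.2 ± 1.76) was above Pik3ip1 (13.8 ± 0.700). The order within these pairs depends on the length used and was not recomputed with the longest transcript. That has 7113 bases for Pik3r1 and 4544 for Akt2, against 10079 and 7131 bases of merged exon. Among all tested genes Pik3cd was at the 97.0th percentile of level per length and Pik3cb at the 51.6th.

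The makeup of each subunit family was read as the share of each gene in the summed length-scaled level of its family, compared between groups by exact permutation (two-sided). With 3 libraries a group, 0.1 is the smallest p this test can reach. Among the class IA catalytic genes Pik3cb made up 4.95, 4.68 and 4.15% W/O IL-10 and 6.20, 5.39 and 5.32% W/ IL-10. The groups did not overlap (difference 1.05 points, exact p = 0.1, adjusted p = 0.18 over the 9 planned shares, of which 6 are reported). Pik3cd held 84.9 ± 0.240% W/O IL-10 against 84.1 ± 1.31% W/ IL-10 (exact permutation p = 0.4). Pik3ca, the p110α gene, held 10.5 ± 0.648% and 10.3 ± 0.815% (exact permutation p = 0.6).

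Among the regulatory genes Pik3r1 made up 83.7, 84.2 and 87.4% W/O IL-10 and 91.5, 90.3 and 91.5% W/ IL-10. All W/ IL-10 libraries were higher, by 5.99 points on average (exact permutation p = 0.1, adjusted p = 0.18), or 2.91 points without length scaling. The Pik3r1 level itself did not pass its test, with means of 260.1 CPM W/O IL-10 and 241.8 CPM W/ IL-10. Shares of a family add up to the whole, so this Pik3r1 difference is not a result separate from that of Pik3r2. The share of Pik3r2, the p85β gene, was lower to match, at 15.4, 14.6 and 11.8% W/O IL-10 and 7.82, 8.996 and 7.67% W/ IL-10 (exact permutation p = 0.1, adjusted p = 0.18), a difference of -5.74 points, or -2.75 points without length scaling. No share passed the threshold, which the design does not allow. The shares carry no correction for GC content, which is 44.9% for Pik3r1 and 61.4% for Pik3r2, and 45.8% for Pik3cb and 57.0% for Pik3cd. Genes of 40 to 45% GC had a median log2 fold change of 0.11, against -0.13 above 60%. The part of this trend in the shares was not tested.

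**Figure D3:**
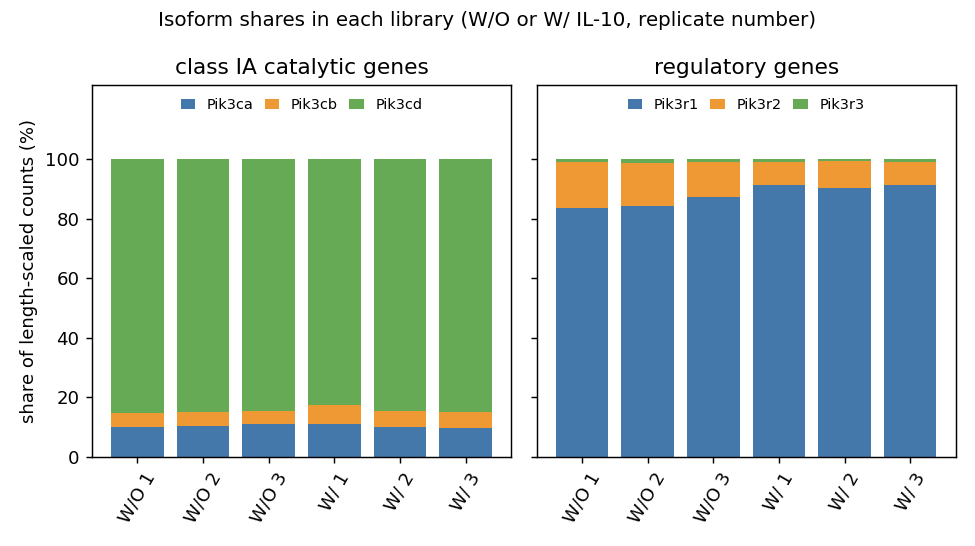
Share in percent (vertical axis, stacked bars) of each gene in the summed length-scaled level of the class IA catalytic genes and of the regulatory genes, with 1 bar per library, replicates 1 to 3 of each group. The mean share of Pik3r1 goes from 85.1% to 91.1% and that of Pik3r2 from 13.9% to 8.16%, while Pik3cd has 84.9% and 84.1%. The shares are not corrected for GC content.

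Outside the members, 62 of the 65 listed pathway genes reported here were tested, and 6 fell, against 0.979% of all tested genes. Their median log2 fold change was -0.08. The smallest p among them belonged to Pik3r2 (ENSMUSG00000031834), which encodes p85β, a regulatory partner of the catalytic subunits like p85α. Its level was 17.3, 18.1 and 16.8 CPM W/O IL-10 and 8.65, 9.59 and 8.63 CPM W/ IL-10. All W/ IL-10 libraries lay below all W/O IL-10 libraries, and the mean was 1.94-fold lower (log2 fold change -0.96, SE 0.11, adjusted p = 0.00475). Pik3r2 passed under 13 of 15 other settings, missing under the 1.5-fold null and without W/ IL-10 replicate 3 (adjusted p = 0.054). Its GC content is 61.4%, in the range where genes tended to be lower W/ IL-10, and with the GC and length correction its log2 fold change was -0.82 (adjusted p = 0.00365).

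Of the other class I genes, Pik3r5, whose p101 product pairs with p110γ, fell from 111.0 ± 2.91 to 83.6 ± 4.84 CPM (log2 fold change -0.41, adjusted p = 0.0269, 0.0602 with the GC and length correction, and 0.0409 with that correction and the replicate block). Of the 6 class I genes tested outside the members 0 rose and 2 fell, and their median log2 fold change was -0.25. Pik3cg, which encodes p110γ, had 152.4 CPM W/O IL-10 and 144.0 CPM W/ IL-10 (adjusted p = 0.66), and Pik3ca had 99.4 and 107.5 CPM (adjusted p = 0.57). Among 6 tested adaptors 1 fell, Irs1, the insulin receptor substrate, with 41, 35 and 36 counts W/O IL-10 and 12, 8 and 14 counts W/ IL-10 (log2 fold change -1.59, SE 0.34, adjusted p = 0.0498). Irs1 counts were few, 30.9% of its exon bases overlap Gm9747 on the opposite strand, and it passed under 4 of 14 other settings. Its adjusted p was 0.0391 with the GC and length correction, and 0.0509 with that correction and the replicate block. Cblb, a ubiquitin ligase that restrains PI3K in T cells, was the most abundant adaptor gene, at 709.7 and 765.2 CPM (adjusted p = 0.614), and Irs2 had 76.2 and 73.9 CPM (adjusted p = 0.802).

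Of the other kinases reported, 0 of 2 tested rose or fell, namely Pdpk1, the PDK1 gene (148.0 and 147.4 CPM, adjusted p = 0.986), and Sgk3, an SGK1 relative (7.34 and 8.36 CPM, adjusted p = 0.624). Among the phosphatase brakes reported outside the members 0 of 7 rose or fell. Inpp4b, a phosphoinositide phosphatase, was lowest in W/O IL-10 replicate 1, with 68.2, 120.0 and 118.5 CPM W/O IL-10 and 104.9, 84.3 and 92.3 CPM W/ IL-10 (adjusted p = 0.816), and it passed with the GC and length correction and without that library. Inpp5k, another inositol polyphosphate phosphatase, had 99.3 and 93.2 CPM (adjusted p = 0.593). Of the class II and III PI3K genes 0 of 4 tested rose or fell, including Pik3r4 (69.3 and 64.9 CPM) and Pik3c3 (60.02 and 58.3 CPM), the VPS15 and VPS34 genes.

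Downstream, 1 of 18 genes of the mTOR complexes fell, Prr5l, whose product binds mTORC2, from 31.9 ± 2.52 to 20.4 ± 1.63 CPM (log2 fold change -0.65, adjusted p = 0.0205). Eif4ebp2, a translation repressor controlled by mTORC1, had 296.5 and 258.2 CPM (adjusted p = 0.253), and Rictor, the scaffold of mTORC2, had 108.5 and 113.2 CPM (adjusted p = 0.859). Among 10 AKT substrates 1 fell, Foxo3, from 77.3 ± 1.83 to 58.0 ± 1.62 CPM (log2 fold change -0.41, adjusted p = 0.0222). Mdm2, the p53 ubiquitin ligase (log2 fold change 0.01, adjusted p = 0.956), and Cdkn1b, the p27 inhibitor of the cell cycle (150.7 and 153.6 CPM), did not pass.

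Of the 9 reported genes listed as FOXO1 targets in T cells, 1 fell. Ccr7, a chemokine receptor for homing to lymph nodes, had 83.6, 106.8 and 110.5 CPM W/O IL-10 and 59.6, 72.1 and 62.6 CPM W/ IL-10 (log2 fold change -0.63, SE 0.12, adjusted p = 0.0364, 0.0594 with the GC and length correction, and 0.00976 with that correction and the replicate block). The other 8 did not pass, among them Txnip, an inhibitor of thioredoxin (755.5 and 663.9 CPM without overlap, adjusted p = 0.327). Bcl2l11, the gene of the death protein BIM, had 345.6 and 372.9 CPM (adjusted p = 0.63). Il7r was lower W/ IL-10 without overlap (68.4 and 53.0 CPM, log2 fold change -0.37, adjusted p = 0.202). It passed without a filter and with the GC and length correction, with or without the replicate block. Sesn3, a sestrin, went the other way, with 220.7, 245.6 and 273.5 CPM W/O IL-10 and 387.0, 306.3 and 376.3 CPM W/ IL-10 (log2 fold change 0.53, adjusted p = 0.0548), and it passed by DESeq2, without a filter, with the GC and length correction and without W/O IL-10 replicate 1. The median log2 fold change of the 9 was -0.16. The groups did not overlap in 6 of the 9, some higher and some lower, against 11.3% of all genes higher and 11.2% lower without overlap. The list was chosen with earlier results known, so this count is no independent evidence. The calls outside the members also changed with the libraries used, since 8 genes passed without W/O IL-10 replicate 1, 2 without W/O IL-10 replicate 3, 1 (Pik3r2) without W/O IL-10 replicate 2 or W/ IL-10 replicate 1 or 2, and 0 without W/ IL-10 replicate 3. The sizes moved less, with log2 fold changes of -1.01 to -0.93 for Pik3r2, -0.46 to -0.37 for Pik3r5, -1.74 to -1.38 for Irs1, -0.71 to -0.58 for Prr5l, -0.44 to -0.40 for Foxo3 and -0.76 to -0.57 for Ccr7 when each library was left out.

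**Figure D4:**
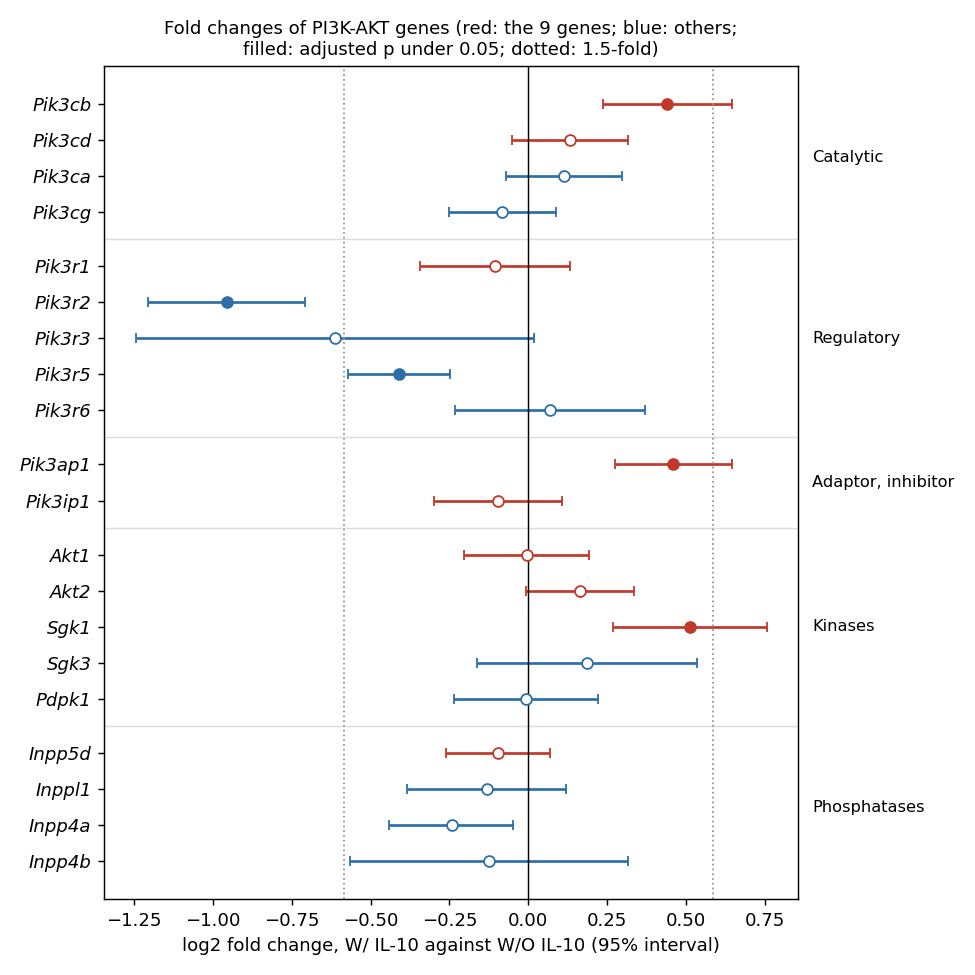
Log2 fold change (W/ IL-10 minus W/O IL-10, horizontal axis) with 95% interval (bars) of the 9 members (red) and of other class I subunits, kinases and phosphatases (blue), filled where the adjusted p was under 0.05, with dotted lines at 1.5-fold. Sgk1 is the highest member at 0.51, and Pik3r2 at -0.96 lies below every member.

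The genes whose profile over the 6 libraries was most like that of Pik3ap1 were Syt11, Traf1 and Trim46, with root mean square differences of centred log2 CPM of 0.0228, 0.0497 and 0.0611. For Inpp5d, the lower member of smallest p, which did not pass its test, they were Slc25a44, D10Jhu81e and Apeh, at 0.0174, 0.0221 and 0.0230. Log2 fold changes were 0.452, 0.405 and 0.544 for the Pik3ap1 neighbours and -0.088, -0.072 and -0.079 for those of Inpp5d. Likeness over 6 libraries in 2 groups is no measure of shared regulation, which was not tested.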

How the data were processed

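The deposited values were whole-number read counts per Ensembl gene for 6 libraries, not normalized. Every value column entered the work, and the libraries all differed from each other. The submitters' processing notes name HISAT2, HTSeq and GRCm38, whereas the paper's methods name TopHat, Cufflinks and UCSC annotation. Versions, strand setting and the differential expression test are not given in the sources used here. A kit is named as TruSeq in the labels and NEBNext in the methods, and the design text speaks of duplicates although 3 libraries are listed per group.

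From these counts, edgeR 4.0.16 (R 4.3.3) fitted the quasi-likelihood test with TMM factors and without a block on genes that reached 10 counts in 3 or more of the 6 libraries. The Benjamini-Hochberg adjustment of p-values covered these 14916 genes. Fold changes are unshrunken, with SE from the square root of the F statistic and 95% intervals from the t distribution of the same fit. CPM use TMM-scaled library sizes, and CPM per kb divides by merged exon length (GENCODE M21 of GRCm38, 29332 of 29393 identifiers found). Floors cover counting error only.

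The members and lists were chosen with earlier results of these data known. Named genes are the members and, per pathway list, every other gene with an adjusted p under 0.05 and the 2 others of highest mean CPM, plus the 3 nearest profiles to the higher and the lower member of smallest p. Sesn3, Il7r and marker genes of the T cell, CD8, dendritic and NK cell lists were named after their values were seen. Pik3r3 is named for its planned share. Results for some genes of these lists are not reported here, and the list counts and medians leave them out, while the adjustment of shares covers all that were planned. Promoters come from RefSeq (GRCm38.p6).

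Alternatives were DESeq2 1.42.0, upper-quartile scaling, no filter, a filter of 10 counts in all 6 libraries, limma-voom (limma 3.58.1), a replicate block, a GC and length correction (splines of 5 degrees of freedom per library) with and without that block, a test against 1.5-fold (glmTreat), and each library left out. Shares were recomputed with the longest transcript and without length. The steps were also run on simulated counts, which is no support for any call or lack of a call here. Tables and plots used Python 3.11.15, pandas 2.3.3 and matplotlib 3.10.9.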

Additional observations from a re-analysis of the deposited data

How the results depend on the processing

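The 3 members past the threshold became 1 with at least 10 counts in every library (Pik3ap1), 1 with the replicate block (Sgk1), 0 against a 1.5-fold null and 0 to 3 with a library left out. Under the other 6 settings 2 to 4 passed, and no setting gave a member past both the threshold and 1.5-fold. The 6 other pathway genes became 0 against the 1.5-fold null and 0 to 8 with a library left out. The log2 fold change of Akt1 turned to 0.116 with the GC and length correction, to 0.116 with that correction and the block, and ranged from -0.074 to 0.070 with a library left out. Of 135 member values, 107 kept direction and side of the threshold, 24 no longer passed, 3 turned and 1 (Akt2, GC and length correction with block) newly passed. The 24 were all values of Pik3cb, Pik3ap1 and Sgk1, which passed under 6, 8 and 7 of 15 other settings. Over single libraries left out, the share difference of Pik3ca ranged from -0.685 to 0.136 points. The causes were not tested.

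The libraries shared only a replicate number. Deviations of libraries with the same number correlated by 0.0524, -0.0573 and 0.114, and numbers 1 and 3, but not 2, correlated best with their own. The block gave 283 genes with an adjusted p under 0.05 in place of 327. That count was 696 by DESeq2, 1239 without a filter, 507 with the GC and length correction, 823 with it and the block, 15 against the 1.5-fold null and 35 to 525 with a library left out. With 1.5-fold also required, 217 genes became 359, 639, 260, 332, 15 and 35 to 254 in the same order. The 3 libraries per group limit every p here.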
